A study of Stylosanthes guianensis with 6 samples.

Results

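The MYB transcription factors that differed with phosphate supply in roots of stylo (Stylosanthes guianensis), a tropical forage legume, comprised 39 unigenes of 173014 in the assembly. A unigene is a cluster of assembled transcripts that stands for a gene, since no genome was used. The members were chosen from the study's own list of 282 transcription factor unigenes, which had been selected on the difference between low and high phosphate in these same libraries. The list holds 41 unigenes of family MYB, of which 0 recur in the study's list of hormone signalling factors, and 2 PHR1-like unigenes were left out. Directions, fold changes and calls of the members are therefore a description of the list and not evidence that MYB factors respond to phosphate.

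RNA of roots of cultivar RY2 was sequenced after 21 d in hydroponics, with 3 libraries at 0 μM KH2PO4 (LP, Pi deprivation) and 3 at 250 μM (HP). Cultivar, greenhouse and nutrient solution were otherwise shared, seedlings of both treatments had been raised at the HP supply, and a biological replicate was a box of 3 seedlings. Samples were grouped by their titles, in which HP is called CK. The phosphorus field in GEO contradicts the titles, with 250 μM for LP and 0 μM for CK, and the extraction text mentions leaves although the tissue is entered as root.

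Phosphate starvation genes picked by name from the study's primer list were higher in the libraries titled LP. They matched SPX domain-containing protein 1, inorganic phosphate transporter 1-4-like and purple acid phosphatase 23-like. The paper also reports other unigenes of these families that were lower under LP. A homologue of SPX1, a sensor protein of the Pi signalling pathway, stood at 189, 199 and 230 FPKM under LP, against 3.71, 3.72 and 4.25 FPKM under HP (Cluster-8255.18191), where FPKM are fragments scaled for transcript length and library size. High-affinity nitrate transporters, typical of roots, were detected in all libraries. The 4 unigenes given came from the study's list of transporters that differed between LP and HP in these same libraries. That they differ was therefore fixed by the choice, and all 4 were lower under LP. Cluster-8255.68504 had 111, 131 and 179.8 FPKM under LP, against 1638, 1952 and 1807 FPKM under HP, and Cluster-8255.68588 had 13.7, 19.1 and 22.2 FPKM under LP, against 897.6, 962.8 and 956.0 FPKM under HP. The other 2 had 0.14 to 0.68 FPKM under LP and 3.67 to 10.7 FPKM under HP. Both unigenes described as photosystem or chlorophyll-binding proteins in the study's tables as used here were higher under LP. They too came from a list that holds only unigenes that differed. Cluster-8255.71546 had 36.1, 45.2 and 33.2 FPKM under LP and 0 in each HP library, Cluster-8255.116774 had 1.20 to 2.01 FPKM under LP and 0 to 0.11 FPKM under HP, and the part of these shifts in the results below was not tested. Libraries held 20643446 to 21784888 estimated counts under LP and 15586353 to 17821019 under HP, and rank correlations were 0.892 to 0.915 within treatments against 0.785 to 0.814 between them. The first principal component (49.5% of the variance) separated the treatments and the second (14.8%) set HP replicate 2 apart.

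MYB proteins bind DNA through imperfect helix-turn-helix repeats, and in plants the classes are named by how many repeats they carry. R2R3-type MYBs, the largest plant class, act in phenylpropanoid and suberin synthesis, cell fate and stress responses. Single-repeat MYBs often compete with R2R3-type proteins for bHLH partners, and a further class with a MYB repeat and a coiled coil holds both APL, a factor of phloem identity in Arabidopsis, and PHR1, the central activator of the Pi starvation response. The descriptions used here are the best matches of the unigenes to proteins of other species, mostly legumes, and not tests of function.

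By these descriptions, 9 members matched APL, 8 a named R2R3-type homologue, 7 numbered MYB-related proteins of peanut (Arachis hypogaea) and 2 a single-repeat MYB. Another 7 carried a MYB name with no subtype. The remaining 6 were not typical MYB factors, comprising a splicing factor CEF1-like, a target of Myb protein 1-like, a pair of Myb/SANT-like proteins and a pair of uncharacterized proteins. The name MYB thus holds for the list as the study's family label, and the descriptions of these 6 unigenes do not name a typical MYB factor.

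In edgeR's quasi-likelihood test, with calls made at an adjusted p under 0.05 and a log2 fold change of 1 or more in either direction, 32 of the 39 members passed, with 18 up-regulated and 14 down-regulated under LP. Over all 62040 unigenes tested the same rule called 13.2%, with 6.09% higher and 7.1% lower. In 22 members every LP library lay above every HP library and in 17 every LP library lay below, which all unigenes did in 20.6% and 21.8%. Since the members were picked on this contrast, nothing is read from these shares. In whole roots, fewer cells of a type and less RNA per cell cannot be told apart. The median log2 fold change of the members was 1.05 (all unigenes tested 0.03), and the median of its size was 1.70 (all 0.58, all called unigenes 1.87).

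Where a called member had reads under both treatments, the log2 fold change was 1.003 to 4.44 in the 17 that were higher under LP and -2.87 to -1.05 in the 14 that were lower. Of the 7 members that did not pass, 6 missed the p threshold and 1, the MYB transcription factor Cluster-8255.65480, missed the fold threshold with a log2 fold change of -0.99 ± 0.13 (SE). Nearest inside the threshold were the myb transcription factor Cluster-8255.24693 (1.003), R2R3 MYB protein 3 (1.01), the MYB59-like homologue (-1.05) and MYB-related protein 24 (1.05).

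**Figure D1:**
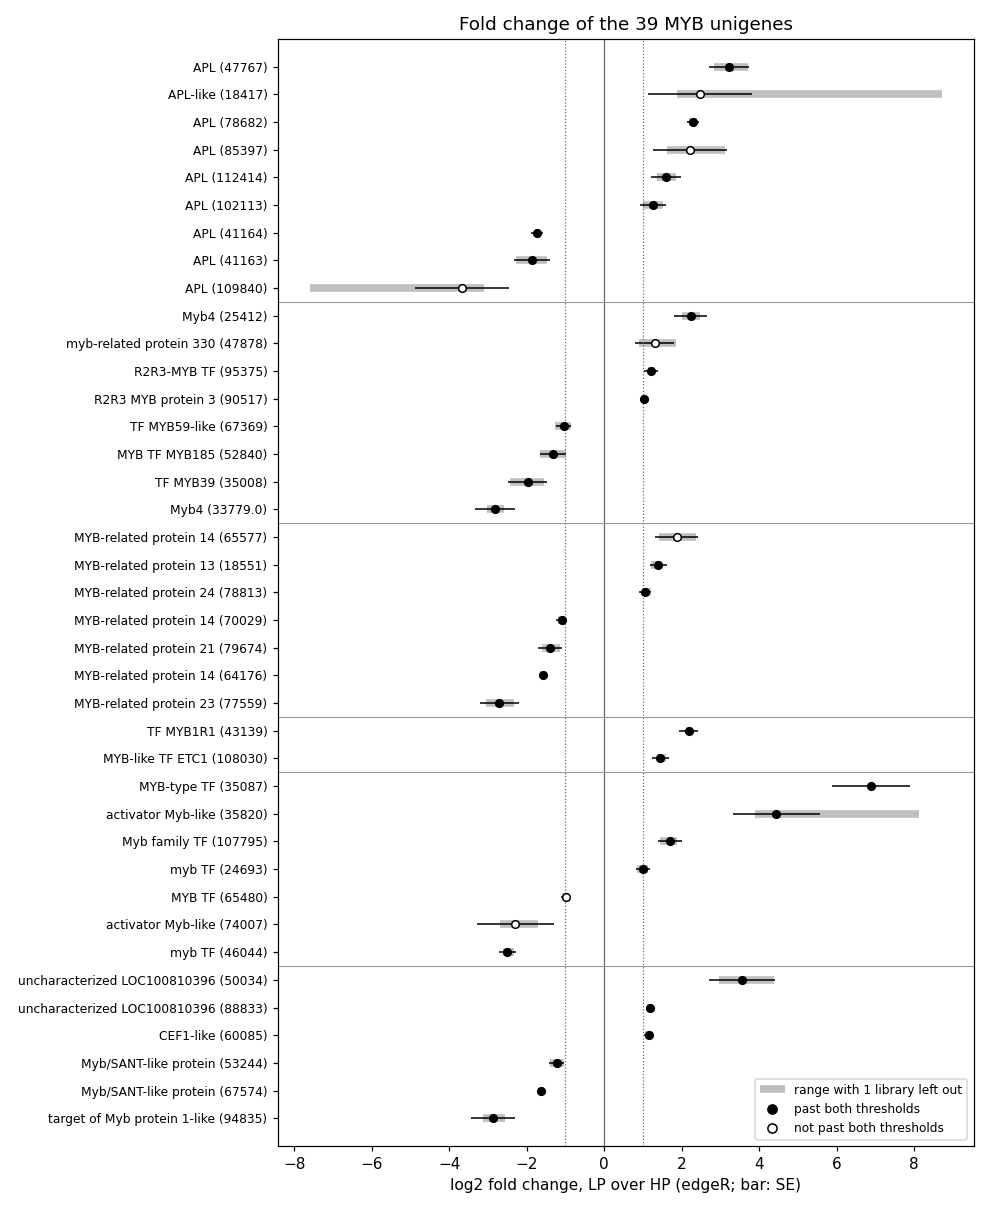
Log2 fold change of LP over HP (x axis, edgeR, bars for the SE) for the 39 MYB unigenes, grouped by description, with grey bands for the range when single libraries were left out. Filled points passed both thresholds (32 members) and open points did not (7). The wide bands belong to members with few reads in a treatment, such as the APL-like Cluster-8255.18417 (1.88 to 8.71, the upper end from a fit with no HP reads left).

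Expression level was not what the list was chosen on, although a unigene had to be expressed to be listed. The members averaged 0.342 to 113 FPKM with a median of 6.17. The medians were 2.59 for all unigenes tested, 4.58 for all unigenes called and 6.93 for the 241 listed factors of the other 12 families. In all, 15 members averaged at least 10 FPKM, 19 from 1 to 10 FPKM and 5 under 1 FPKM, and 30 lay above the median unigene tested. The 15 and the 30 include Cluster-8255.35087 (24.2 FPKM), whose FPKM are not comparable because its sequence is very short. Summed over the 39 members, FPKM were 499.3, 468.5 and 527.3 under LP, against 633.4, 637.6 and 648.4 under HP. The sum was thus lower under LP in every library although more members were higher than lower. The largest shares of the sum were those of 2 unigenes that were lower under LP. MYB-related protein 14 (Cluster-8255.64176) and the MYB59-like homologue held 11.2% and 13.4% of the LP sum, and 26.5% and 21.8% of the HP sum. The 14 members called lower summed to 181.8 ± 19.4 FPKM under LP and 493.0 ± 4.24 FPKM under HP, and the 18 called higher to 275.9 ± 18.1 FPKM under LP and 87.5 ± 2.37 FPKM under HP (SD, n = 3 each). Without Cluster-8255.35087, a very short unigene described below, those called higher summed to 227.4 ± 19.1 FPKM under LP, against the same HP values.

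**Figure D2:**
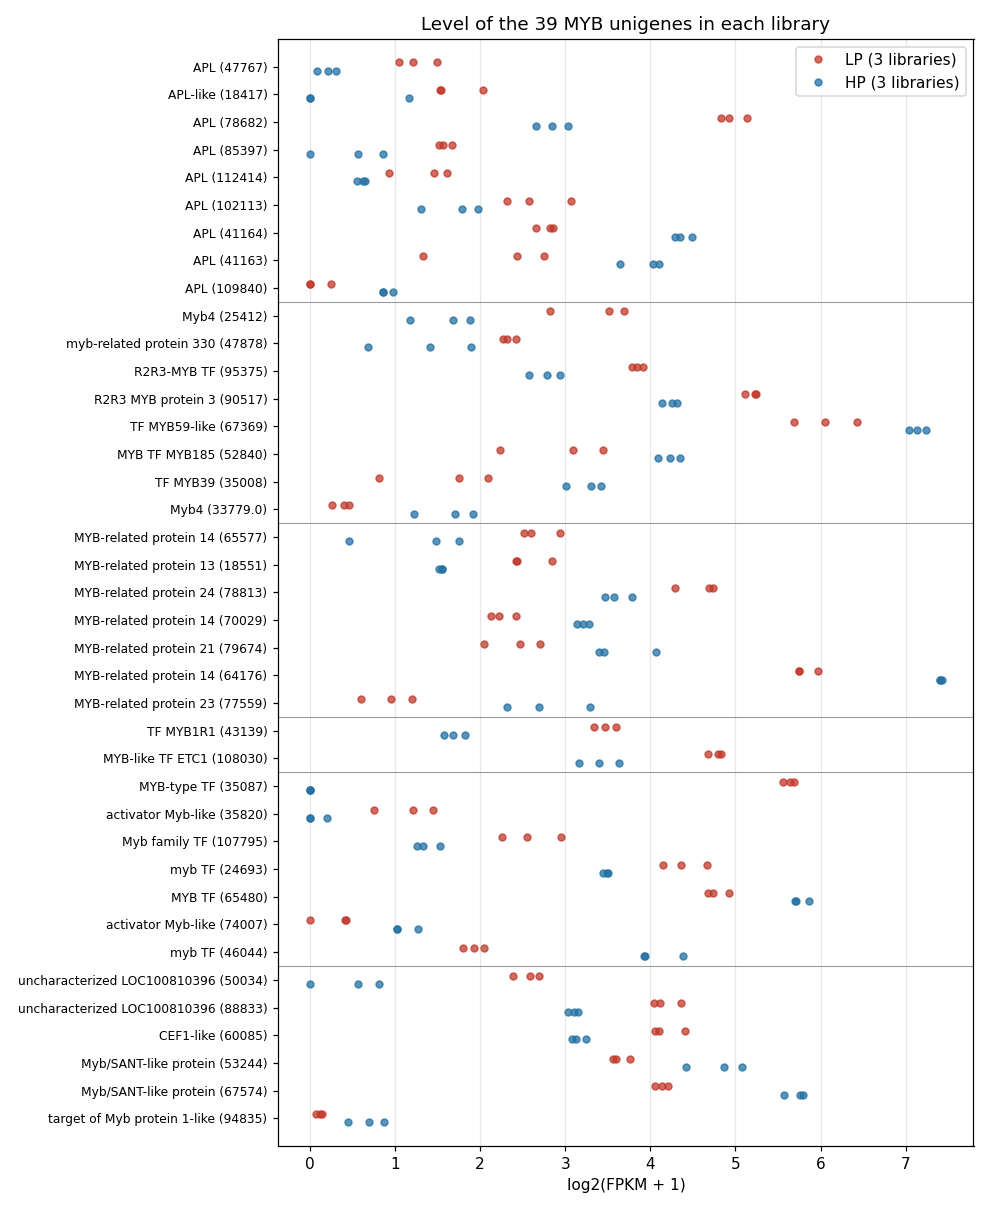
Expression of the 39 MYB unigenes as log2(FPKM + 1) (x axis) in the 3 LP libraries (red, upper points of each row) and the 3 HP libraries (blue, lower points), grouped by description with the unigene number in brackets. The libraries of the treatments do not overlap for any of the 39 members, in 22 with LP above HP and in 17 with LP below. Among all unigenes tested these shares were 20.6% and 21.8%, and the members were picked on this contrast.

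The 9 APL-like unigenes went both ways: 6 were higher under LP, of which 4 were called, and 3 were lower, of which 2 were called. Their median log2 fold change was 1.60. The most abundant was Cluster-8255.78682, with 27.4, 29.3 and 34.2 FPKM under LP, against 6.20, 5.29 and 7.17 FPKM under HP. All LP libraries lay far above all HP libraries, and the call, at a log2 fold change of 2.30 ± 0.15 (SE), was kept with each library left out in turn.

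A unigene with the same match, Cluster-8255.47767, had 1.81, 1.32 and 1.07 FPKM under LP, against 0.16, 0.24 and 0.06 FPKM under HP. It was the APL-like unigene with the strongest called increase, a log2 fold change of 3.22 ± 0.51 (SE), at a low level. Among the 5 unigenes matched to APL of wild soybean (Glycine soja) under an identical name, Cluster-8255.102113 had 7.40, 4.97 and 3.97 FPKM under LP, against 2.93, 2.44 and 1.48 FPKM under HP, and Cluster-8255.112414 had 2.05, 1.74 and 0.91 FPKM under LP, against 0.57, 0.47 and 0.54 FPKM under HP. Both were called higher (1.27 ± 0.34 and 1.60 ± 0.38 on the log2 scale), but neither stayed past the thresholds when LP replicate 1, LP replicate 2 or any HP library was left out, with log2 fold changes of 0.99 to 1.52 and 1.36 to 1.86 over the left-out libraries.

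In contrast, Cluster-8255.41164 was down-regulated, with 6.07, 5.33 and 6.26 FPKM under LP, against 19.4, 18.6 and 21.4 FPKM under HP (log2 fold change -1.74, SE 0.16), and so was Cluster-8255.41163, with 4.42, 1.51 and 5.73 FPKM under LP, against 11.5, 16.2 and 15.4 FPKM under HP (log2 fold change -1.87, SE 0.47). These share neighbouring cluster numbers as well as their description, and together they summed to 10.5, 6.84 and 11.99 FPKM under LP, against 30.9, 34.8 and 36.8 FPKM under HP. The first kept its call whichever library was left out, whereas the call of Cluster-8255.41163, low in LP replicate 2, was lost when LP replicate 1 or any HP library was left out (log2 fold changes -2.27 to -1.47).

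The other 3 APL-like unigenes did not pass the p threshold, and each rested on few reads in the lower treatment. Cluster-8255.85397 had 1.86, 2.18 and 1.95 FPKM under LP, against 0.81, 0.48 and 0 FPKM under HP (edgeR adjusted p = 0.161). Cluster-8255.18417 had 1.92, 1.89 and 3.11 FPKM under LP, against 1.25, 0 and 0 FPKM under HP (edgeR adjusted p = 0.258), so its HP reads came from replicate 1 alone. For Cluster-8255.109840, the lowest of the group, the values were 0, 0 and 0.19 FPKM under LP, against 0.82, 0.81 and 0.96 FPKM under HP (edgeR adjusted p = 0.0786), and its 6 LP reads all came from replicate 3. The APL-like unigenes summed to 53.0, 48.3 and 57.4 FPKM under LP, against 43.6, 44.5 and 47.1 FPKM under HP, a narrow separation in which the increases and decreases largely offset each other.

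Of the 8 R2R3-type homologues, 3 were called higher and 4 lower, and their median log2 fold change was -0.02. The most abundant, Cluster-8255.67369, matched MYB59, which in Arabidopsis acts in root growth and in nitrate and potassium transport. Its values were 50.4, 65.6 and 84.8 FPKM under LP, against 130.7, 149.6 and 138.9 FPKM under HP. It was lower in every LP library, yet LP replicate 1 was well below LP replicate 3, and the log2 fold change of -1.05 ± 0.20 (SE) missed the fold threshold without LP replicate 1 (-0.87) or HP replicate 2 (-0.99).

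Cluster-8255.35008, a homologue of MYB39, which controls suberin deposition in the root endodermis of Arabidopsis, had 0.76, 2.37 and 3.26 FPKM under LP, against 9.68, 8.88 and 7.04 FPKM under HP. Cluster-8255.52840, a homologue of soybean MYB185, had 3.72, 7.54 and 9.84 FPKM under LP, against 17.8, 19.3 and 15.97 FPKM under HP. In both, LP replicate 1 was the lowest library and lay far below LP replicate 3. They were called lower (-1.98 ± 0.51 for MYB39 and -1.31 ± 0.34 for MYB185), but both calls were lost when LP replicate 2 or any HP library was left out, and that of MYB185 also without LP replicate 1. Over the left-out libraries the log2 fold changes were -2.44 to -1.56 for MYB39 and -1.65 to -0.998 for MYB185.

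A pair of unigenes matched Myb4, known in Arabidopsis as a repressor of phenylpropanoid genes, and moved in opposite directions. Cluster-8255.25412 had 10.4, 6.07 and 11.95 FPKM under LP, against 1.26, 2.21 and 2.69 FPKM under HP (log2 fold change 2.23, SE 0.42). Cluster-33779.0 had 0.20, 0.37 and 0.32 FPKM under LP, against 1.34, 2.77 and 2.27 FPKM under HP (log2 fold change -2.82, SE 0.51). Under LP the first was the more abundant of the pair, and under HP their means were 2.05 and 2.13 FPKM. Their sum stood at 10.6, 6.44 and 12.3 FPKM under LP, against 2.60, 4.98 and 4.96 FPKM under HP. Both calls were kept with each library left out in turn.

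Both unigenes described simply as R2R3 proteins were up-regulated. R2R3 MYB protein 3 of peanut (Cluster-8255.90517) had 36.5, 33.5 and 36.7 FPKM under LP, against 18.04, 18.8 and 16.6 FPKM under HP, with replicates close together. Its log2 fold change of 1.01 ± 0.10 (SE) was near the threshold and fell below it without LP replicate 3 (0.98) or HP replicate 3 (0.95). An R2R3-MYB transcription factor (Cluster-8255.95375) had 14.1, 13.4 and 12.8 FPKM under LP, against 4.94, 5.87 and 6.69 FPKM under HP (log2 fold change 1.21, SE 0.18).

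The homologue of MYB-related protein 330, which in snapdragon acts on phenylpropanoid genes, had 3.96, 3.83 and 4.36 FPKM under LP, against 1.67, 2.70 and 0.60 FPKM under HP (Cluster-8255.47878). The LP libraries were close together while the HP libraries spread, and it did not pass (edgeR adjusted p = 0.119). The 8 unigenes summed to 120.1, 132.6 and 164.1 FPKM under LP, against 185.4, 210.2 and 190.7 FPKM under HP.

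The 7 unigenes matched to numbered MYB-related proteins of peanut, for which no role is given here, had a median log2 fold change of -1.10, with 2 called higher and 4 lower. They include the most abundant member of all, MYB-related protein 14 (Cluster-8255.64176), with 61.5, 52.6 and 52.8 FPKM under LP, against 170.9, 168.3 and 168.9 FPKM under HP. The replicates of each treatment were nearly alike, and the call, at a log2 fold change of -1.59 ± 0.09 (SE), was kept under each of the 18 alternatives run. This unigene carried 8286 reads under LP and 19756 under HP, the deepest measurement among the members.

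A further pair shared its description. Cluster-8255.70029 had 4.35, 3.36 and 3.67 FPKM under LP, against 8.22, 7.79 and 8.72 FPKM under HP (log2 fold change -1.10, SE 0.13), lower like the abundant unigene. Cluster-8255.65577 lay the other way, with 4.74, 5.05 and 6.66 FPKM under LP, against 2.36, 0.38 and 1.80 FPKM under HP, where HP replicate 2 was far below the other HP libraries, and it did not pass (edgeR adjusted p = 0.0572). Together the 3 unigenes of this name summed to 70.6, 61.1 and 63.1 FPKM under LP, against 181.5, 176.5 and 179.4 FPKM under HP.

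MYB-related protein 24 (Cluster-8255.78813) had 25.6, 18.6 and 24.7 FPKM under LP, against 10.9, 10.04 and 12.7 FPKM under HP, and MYB-related protein 13 (Cluster-8255.18551) had 6.20, 4.38 and 4.35 FPKM under LP, against 1.94, 1.87 and 1.94 FPKM under HP. Both were up-regulated, the first by 1.05 ± 0.17 and the second by 1.39 ± 0.22 on the log2 scale, but protein 24 dropped under the fold threshold without LP replicate 1, LP replicate 3 or HP replicate 2 (0.98 in each). MYB-related protein 21 (Cluster-8255.79674) had 4.54, 3.12 and 5.49 FPKM under LP, against 9.94, 9.51 and 15.8 FPKM under HP, and MYB-related protein 23 (Cluster-8255.77559) had 0.94, 0.52 and 1.30 FPKM under LP, against 8.80, 3.97 and 5.44 FPKM under HP. Both were down-regulated (-1.40 ± 0.31 and -2.71 ± 0.50). The call of protein 21 was lost without LP replicate 1 or 2 or without HP replicate 1 or 3 (log2 fold changes -1.61 to -1.15), and that of protein 23 was lost without HP replicate 1 (-2.32), its highest library.

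Both single-repeat MYBs were up-regulated. ETC1, which in Arabidopsis promotes root hair and represses trichome fate together with its relatives CPC and TRY, had a homologue (Cluster-8255.108030) with 26.8, 24.5 and 27.6 FPKM under LP, against 7.92, 11.4 and 9.56 FPKM under HP. The homologue of MYB1R1, known in potato as a drought-responsive factor, had 11.1, 10.1 and 9.12 FPKM under LP, against 2.2, 1.97 and 2.55 FPKM under HP (Cluster-8255.43139). The treatments were well apart in both unigenes, with a log2 fold change of 1.45 ± 0.23 (SE) for ETC1 and of 2.17 ± 0.25 for MYB1R1, and both calls were kept with each library left out. Their sum was 37.9, 34.6 and 36.7 FPKM under LP, against 10.1, 13.3 and 12.1 FPKM under HP.

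Among the 7 unigenes with a MYB name and no subtype, 4 were called higher and 1 lower. The MYB-type transcription factor Cluster-8255.35087 was the only member without reads in a whole treatment: it had 16, 17 and 16 reads in the LP libraries and 0 in each HP library. Against a floor of 3 reads over the HP libraries it was at least 12.96-fold higher under LP. This bound covers counting error under HP only, not that of the LP reads or the spread between replicates. Its FPKM of 48.8, 50.4 and 46.2 under LP come from a very short sequence. The effective length, the stretch on which a fragment can start, follows from the count and the FPKM and was 16.3 bases in LP replicate 2, against 262 to 4571 bases in the other 38 members. Its call was lost when any LP replicate was left out (log2 fold changes 6.82 to 6.93 over the left-out libraries). With 0 reads under HP, the size of these log2 fold changes is not a measured ratio, and their narrow range shows no precision.

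This unigene alone turned the direction of the sum of its group. With it, the 7 unigenes summed to 107.1, 100.4 and 106.3 FPKM under LP, against 78.9, 83.8 and 84.3 FPKM under HP. Without it, the other 6 summed to 58.3, 49.97 and 60.1 FPKM under LP, against the same HP values. The sum over all members without it was 450.6, 418.0 and 481.1 FPKM under LP, further below HP.

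**Figure D3:**
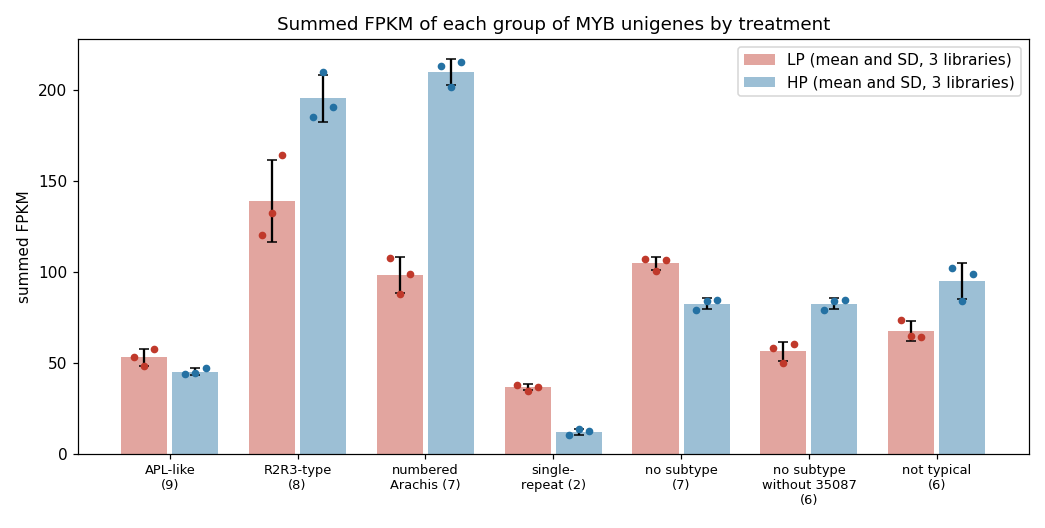
Summed FPKM (y axis) of the members of each group, with bars for the mean, lines for the SD and points for the libraries of LP (red, left) and HP (blue, right). The number of unigenes is given under each group. The group with no subtype is drawn with and without Cluster-8255.35087, and its LP mean is 104.6 FPKM with it and 56.1 FPKM without it, against 82.3 FPKM under HP.

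Unigenes of the same description again took opposite directions. The myb transcription factor Cluster-8255.46044 had 2.49, 3.13 and 2.81 FPKM under LP, against 14.3, 19.8 and 14.2 FPKM under HP (log2 fold change -2.50, SE 0.22), a decrease that was called under each of the 18 alternatives run. Its namesake Cluster-8255.24693 had 24.4, 16.7 and 19.5 FPKM under LP, against 10.4, 9.84 and 10.3 FPKM under HP (log2 fold change 1.003, SE 0.19), and this call was lost without LP replicate 1, HP replicate 2 or HP replicate 3 (0.86 to 0.995). Summed, the pair overlapped between treatments, at 26.9, 19.8 and 22.3 FPKM under LP, against 24.7, 29.6 and 24.4 FPKM under HP.

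The transcriptional activator Myb-like unigenes behaved alike in this respect at a much lower level. Cluster-8255.35820 (isoform X2) had 1.73, 0.68 and 1.31 FPKM under LP, against 0.15, 0 and 0 FPKM under HP, with 4 reads in all under HP. Its log2 fold change of 4.44 ± 1.12 (SE) was not past the thresholds when any LP replicate, HP replicate 2 or HP replicate 3 was left out (3.89 to 4.75), and was 8.12 without HP replicate 1, which held all the HP reads. With no HP reads left, the size of that last value is not a measured ratio. Cluster-8255.74007 (isoform X1) had 0.34, 0 and 0.33 FPKM under LP, against 1.42, 1.03 and 1.04 FPKM under HP and did not pass (edgeR adjusted p = 0.159). Their sum also overlapped, at 2.07, 0.68 and 1.64 FPKM under LP, against 1.57, 1.03 and 1.04 FPKM under HP.

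The MYB transcription factor Cluster-8255.65480, the most abundant of this group apart from the very short unigene under LP, had 25.6, 24.6 and 29.5 FPKM under LP, against 51.2, 51.2 and 57.5 FPKM under HP. All LP libraries lay below all HP libraries, and the edgeR adjusted p was 0.003, so that only the fold threshold kept it from being called. A putative Myb family factor (Cluster-8255.107795) had 3.78, 4.86 and 6.73 FPKM under LP, against 1.52, 1.89 and 1.40 FPKM under HP (log2 fold change 1.70, SE 0.30).

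The 6 unigenes that are not typical MYB factors were all called, 3 higher and 3 lower. CEF1 is a spliceosome component with MYB repeats, known from yeast, and its homologue Cluster-8255.60085 had 20.1, 16.2 and 15.7 FPKM under LP, against 7.74, 8.47 and 7.42 FPKM under HP (log2 fold change 1.15, SE 0.13). The pair of uncharacterized proteins with a common description was up-regulated. Cluster-8255.88833 had 19.5, 16.3 and 15.5 FPKM under LP, against 7.21, 7.58 and 7.91 FPKM under HP (log2 fold change 1.19, SE 0.13). Cluster-8255.50034 had 5.48, 4.23 and 4.99 FPKM under LP, against 0.76, 0.48 and 0 FPKM under HP, at a log2 fold change of 3.56 ± 0.85 (SE). The call was lost when any LP replicate or HP replicate 2 was left out (log2 fold changes 3.48 to 3.67). The estimate became 4.39 without HP replicate 1 and 2.97 without HP replicate 3.

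The Myb/SANT-like pair, whose domain resembles a MYB repeat, was down-regulated as a pair. Cluster-8255.67574 had 17.5, 15.6 and 16.6 FPKM under LP, against 53.2, 46.7 and 54.4 FPKM under HP (log2 fold change -1.62, SE 0.10), with tight replicates. Cluster-8255.53244 had 10.9, 12.6 and 11.1 FPKM under LP, against 32.8, 20.4 and 28.3 FPKM under HP (log2 fold change -1.23, SE 0.20), with HP replicate 2 lowest of its treatment. Both stayed called whichever library was left out, and they summed to 28.3, 28.2 and 27.6 FPKM under LP, against 86.0, 67.1 and 82.7 FPKM under HP.

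The target of Myb protein 1-like unigene (Cluster-8255.94835) encodes by its description a sorting protein of endosomes, named in animals for a link to Myb, and not a transcription factor. It was barely detected, with 0.05, 0.10 and 0.09 FPKM under LP, against 0.62, 0.36 and 0.83 FPKM under HP. Its log2 fold change of -2.87 ± 0.56 (SE) rested on 16 reads under LP and 96 under HP, and the call was lost without HP replicate 1 (-2.83) or HP replicate 3 (-2.59).

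Over all members, 17 of the 32 calls were kept with each library left out in turn, and 15 were lost in at least 1 such fit. With single libraries left out, 21 to 29 members were called, the fewest without LP replicate 1, where 11 were higher instead of 18. Without HP replicate 1, 8 were lower instead of 14, and without HP replicate 3, 9 were lower. Calls over all unigenes tested fell as well. Those higher fell from 3780 to 2589 without LP replicate 1. Those lower fell from 4403 to 2668 without HP replicate 1 and to 2836 without HP replicate 3. No member changed direction under those of the 18 alternatives in which it was tested. The filter of at least 1 CPM in 3 libraries left out Cluster-8255.35087 and Cluster-8255.35820, and so tested 37 members.

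**Figure D4:**
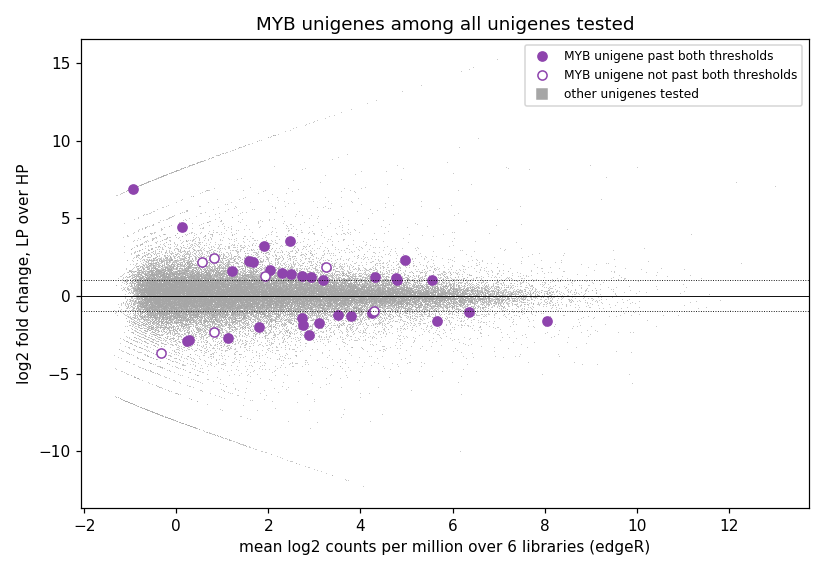
Log2 fold change of LP over HP (y axis) against mean log2 CPM (x axis, counts scaled for library size) for all 62040 unigenes tested (grey) and the 39 MYB unigenes (purple, filled where past both thresholds). Members span -3.67 to 6.89, and those with the largest changes lie at low counts, while the most abundant member sits at -1.59. The value 6.89 belongs to Cluster-8255.35087, which had 0 HP reads, so its size is not a measured ratio.

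The study's list was selected on a q-value, into which the spread between replicates enters, so the spread of the members is given as a description. The median SD of log2 CPM was 0.207 within LP and 0.203 within HP for the members, 0.258 and 0.199 for all unigenes called, and 0.296 and 0.256 for all unigenes tested. Within LP, replicate 2 was the lowest library in 20 of 39 members (51.3%, against 35.8% of all unigenes tested) and the highest in 6 (15.4%, against 30.9%). Replicate 1 was the highest in 16 (41%, against 29.6%). Replicate 3 was the highest in 17 (43.6%, against 39.5%) and the lowest in 6 (15.4%, against 32%). Within HP, replicate 2 was the lowest in 17 of the 38 members with HP reads (44.7%, against 36.5%), the library that the second principal component set apart. Members are not independent of each other, so these shares were not tested.

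Sequence length as seen by the quantification did not move with treatment in the members that could be compared. Each library's lengths were first divided by their median ratio to the mean over libraries. A shift common to a whole library is removed by this scaling and could not be seen. In the 26 members with at least 10 counts and 0.5 FPKM in every library, the log2 ratio of effective length, LP over HP, was -0.014 to 0.0027, and none differed by more than 10%. The treatments' lengths did not overlap in 3 of them (11.5%), against 7.09% of 36305 unigenes. Beyond such a common shift, the FPKM differences of these members are therefore differences in counts. RSEM divides a read that matches several unigenes, which leaves a count that is not whole. In 18 of the 39 members (46.2%) the count was not whole in each of the 6 libraries, against 55.5% of all unigenes tested, and in 7 it was whole in every library. The split between unigenes of the same description may be uncertain where counts were not whole. Such a count does not show which other unigene shared the reads, and sharing between namesakes was not tested. That counts were not whole holds in every library for both APL-like unigenes that were called lower and for all 3 matched to MYB-related protein 14. It also holds in 4 to 6 libraries for the other APL-like unigenes. In the Myb4 pair it holds in 5 libraries for Cluster-8255.25412 and 2 for Cluster-33779.0. Among the transcriptional activator Myb-like unigenes it holds in 4 for Cluster-8255.35820 and 5 for Cluster-8255.74007. Both uncharacterized proteins are affected in 5. The Myb/SANT-like Cluster-8255.67574 is affected in 6, but its namesake Cluster-8255.53244 had whole counts in every library. The counts thus give no sign of reads shared within that pair. For the pair of myb transcription factors that moved in opposite directions, Cluster-8255.46044 and Cluster-8255.24693, the counts were whole in all 6 libraries.

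The other 12 families of the same list were chosen in the same way. Of their 241 unigenes 228 were tested and 205 called, 87 higher and 118 lower, with a median log2 fold change of -1.15 and a median size of 1.72 (MYB members 1.70). The PHR1-like unigenes left out were both down-regulated. Cluster-8255.79060 had 9.11, 12.4 and 8.75 FPKM under LP, against 29.6, 29.2 and 32.4 FPKM under HP, and Cluster-8255.53008 had 3.37, 3.65 and 3.56 FPKM under LP, against 11.5, 13.8 and 13.8 FPKM under HP.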

How the data were processed

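RNA-seq of RY2 roots was analysed from 6 deposited tables, 1 per library. According to the paper, the authors filtered paired reads, assembled unigenes with Trinity and quantified them with RSEM at default settings. The submitters' processing notes name Bowtie2 2.2.3. The deposited read counts are RSEM estimated counts, not normalized and not always whole, and the FPKM values that the authors deposited are scaled by RSEM for length and library size. Whether counting used strand is not stated in these sources, so overlapping and antisense unigenes are uncertain. Columns of fold changes and p-values in the study's tables were not used. The rule for members took all MYB unigenes of the study's transcription factor list except those also in its hormone list and the PHR1-like pair. Members and lists were chosen with earlier results of these data known, and all 39 were named.

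Counts were rounded, filtered with filterByExpr (minimum count 10, which left 62040 of 173014 unigenes), scaled by TMM and tested for LP against HP with the quasi-likelihood test of edgeR 4.0.16 (R 4.3.3), and p-values were adjusted for all tested unigenes by Benjamini-Hochberg. The common biological coefficient of variation was 0.420. The SE is the log2 fold change divided by the root of the test statistic. With 3 libraries against 3, no exact two-sided permutation p can be below 0.1. No pair of libraries was alike within sampling noise (chi-square per degree of freedom 6.02 to 20.7). Alternatives were DESeq2 1.42.0, limma 3.58.1 on log2(FPKM + 1) and log2(FPKM + 0.1), other normalizations, filters and thresholds, counts not rounded, a replicate block, and each library left out. The sums without the shortest unigene were added after seeing the data. The steps were tested on simulated data.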

Additional observations from a re-analysis of the deposited data

How the results depend on the processing

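Of the 32 called members, 7 kept the call under all 18 alternatives and 17 with each library left out in turn, and none reversed where it was tested (the filter of at least 1 CPM in 3 libraries tested 37 members). Over all unigenes tested, the main fit called 8183. Testing against a fold threshold (log2 of 1) called 9 members, 4 higher and 5 lower, and 3053 of all unigenes. An adjusted p threshold of 0.01 called 16, with 10 higher and 6 lower, and 4214 of all. Leaving out single libraries gave 21 to 29 called members, 11 to 17 higher and 8 to 16 lower, and 5586 to 8183 of all. The remaining settings called 29 to 34, apart from the block, and 7019 to 10010 of all. Replicate numbers are shared by the titles of both treatments. Deviations of same-numbered libraries correlated at -0.006, 0.040 and 0.049, against -0.063 to 0.026 for libraries of different numbers. Replicates 2 and 3 thus lay slightly above that range. All correlations were small, and the numbers were not taken to pair the samples. With the replicate number as a block, edgeR called 23 members, 13 higher and 10 lower, and 5167 of all unigenes. Leaving the shortest unigene out of the summed FPKM, an alternative chosen after seeing the data, moved the ratio of LP over HP to 0.703 over all members, against 0.779 with it, and turned that of the unigenes with no subtype to 0.682, against 1.27. The LP libraries were deeper than the HP libraries, and 8 called members had fewer than 50 reads over a treatment, which limits the precision of their fold changes.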
